A study of Mus musculus with 8 samples.

Results

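The long noncoding RNA genes Malat1 and Neat1 and the protein-coding genes Ehbp1l1 and Fam89b lie side by side on mouse chromosome 19, and their promoters were followed through 4 loop lists from FOXA1 and HNF4G Hi-ChIP. Hi-ChIP ligates DNA fragments that touch in the nucleus and then immunoprecipitates a chosen protein, so that each loop is a pair of genomic segments, its anchors, joined in that protein's library. A loop belonged to the set when an anchor lay within 2 kb of an annotated transcript start of Malat1, Neat1, Ehbp1l1 or Fam89b in the mm10 (GRCm38) assembly. This gave 443 distinct loops of 249200 in the series and of 18857 on chromosome 19, and 5 member anchors of 30542. The genes were chosen by a measured value, the number of loops at the anchor shared by Ehbp1l1 and Fam89b, so the loop numbers below are a description and were not tested.

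The series held 8 samples of mouse pancreatic cancer cells in 4 groups of 2 replicates. FOXA1 and HNF4G were each immunoprecipitated in a cell line grown out of a primary tumor of KPC mice, a genetic model of pancreatic cancer (tumor), and in the matched isogenic line of a liver metastasis (liver mets). All cells were labelled wild type for genotype and untreated, and were grown in DMEM with 10% serum. Both replicates of a group were given as 1 loop list, so there was no spread between replicates, each context was 1 cell line, and the sequencing depth is unknown. All intervals are 95% intervals for counting error only, and they take each loop as independent, which loops with a common anchor are not. For FOXA1 125623 loops were listed in liver mets and 104136 in tumor, and for HNF4G 78098 and 76323. Where 4 values follow each other below, FOXA1 comes before HNF4G and, for each factor, liver mets before tumor.

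FOXA1 is a forkhead pioneer factor of endodermal tissues, and HNF4G is a nuclear receptor of gut and pancreatic epithelium. Malat1 RNA is an abundant nuclear transcript that gathers at nuclear speckles, and Neat1 RNA is the scaffold on which paraspeckles form. Ehbp1l1 encodes a membrane traffic protein that binds small GTPases, and Fam89b encodes a small protein that binds actin-regulating kinases. Promoters of strongly transcribed genes often touch each other in the nucleus, and loop callers list more loops where anchors are wide or close together.

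The 5 member anchors lay on 128 kb of chromosome 19, and all 4 genes are read from the minus strand. The anchor at chr19:5723745-5732662 (8.92 kb), called the hub anchor here, covered the starts of Ehbp1l1 (gene at chr19:5707376-5726317) and Fam89b (chr19:5728087-5729653), and also of Sssca1 (chr19:5728088-5731732), so loops of these genes cannot be told apart. Malat1 (chr19:5795690-5802672) had an anchor over its start at chr19:5799058-5804657 (5.60 kb). A second Malat1 anchor, at chr19:5794137-5795625 (1.49 kb), lay past the 3′ end of the gene and qualified only through short transcripts annotated inside it, the nearest of which started 1327 bp away. Neat1 (chr19:5824708-5845478) had an anchor over its start at chr19:5839184-5851427 (12.2 kb) and another over its body at chr19:5826451-5838383 (11.9 kb), which held an annotated internal start. The closest anchors left out by the 2 kb limit were at chr19:5805207-5807024, which lay 2535 bp from the Malat1 start and had 12, 19, 6 and 5 loops, and at chr19:5821588-5823037, which lay 4975 bp from a Neat1 start and had 15, 14, 14 and 12 loops. The hub, Malat1 start and both Neat1 anchors were wide, at percentiles 99.5, 96.3, 99.9 and 99.9 of all anchor widths, and the Malat1 3′ anchor was narrow, at percentile 5.1.

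The promoters of the members for which RefSeq (GRCm38.p6) gave a sequence, Malat1 and Ehbp1l1, are shown first because they are what the loops meet at the gene ends of 2 member anchors. Each runs 5′ to 3′ on the minus strand from 250 bases before the start to 50 after it, at chr19:5802623-5802922 and chr19:5726268-5726567. Capitals mark TGACGT (the core of a cAMP response element) and GGGCGG (a GC box) on either strand, so that ACGTCA and CCGCCC are the same letters read on the other strand.
Malat1: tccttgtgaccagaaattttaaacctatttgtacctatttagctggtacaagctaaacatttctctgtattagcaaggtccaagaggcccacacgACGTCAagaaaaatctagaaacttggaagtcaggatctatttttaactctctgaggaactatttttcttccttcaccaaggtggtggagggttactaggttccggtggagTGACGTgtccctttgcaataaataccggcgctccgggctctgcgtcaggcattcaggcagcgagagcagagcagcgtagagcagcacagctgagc
Ehbp1l1: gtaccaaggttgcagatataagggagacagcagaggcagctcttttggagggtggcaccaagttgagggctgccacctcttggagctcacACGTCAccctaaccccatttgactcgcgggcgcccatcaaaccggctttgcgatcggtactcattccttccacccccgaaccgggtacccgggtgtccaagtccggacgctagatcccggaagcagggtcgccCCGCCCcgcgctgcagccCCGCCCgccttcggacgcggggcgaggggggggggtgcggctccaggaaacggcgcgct
The Malat1 window held TGACGT at 2 places, and the Ehbp1l1 window held it at 1 place beside 2 GC boxes. Of 32851 RefSeq promoters of this length, 7.51% held TGACGT and 35.7% held GGGCGG. The forkhead letters TGTTTAC and TATTTAC, and the HNF4 letters CAAAGTCCA and CAAAGGTCA, were searched on both strands and had no match in either window. Among all promoters TGTTTAC was present in 3.65% and CAAAGTCCA in 0.475%.

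Matches to those factor letters lay inside the anchors. The windows below are from the GRCm38 sequence, with 20 bases on each side of the match in capitals, and they show the letters recognised by each factor family at the anchors that carried the loops. The hub match was at chr19:5727606-5727652 (plus strand), in an intron of Gm16538 between Ehbp1l1 and Fam89b, and the Malat1 match was at chr19:5800921-5800967 (minus strand), inside the Malat1 exon.
Hub anchor, forkhead: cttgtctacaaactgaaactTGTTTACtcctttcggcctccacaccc
Malat1 start anchor, forkhead: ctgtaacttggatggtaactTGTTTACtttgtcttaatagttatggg
The Neat1 anchors held CAAAGTCCA at 3 places, all on the plus strand and all inside Neat1 exons. These were at chr19:5834894-5834942 and chr19:5836072-5836120 in the body anchor and at chr19:5844714-5844762 in the start anchor.
Neat1 body anchor, HNF4, lower position: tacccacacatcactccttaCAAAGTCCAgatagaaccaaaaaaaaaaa
Neat1 body anchor, HNF4, higher position: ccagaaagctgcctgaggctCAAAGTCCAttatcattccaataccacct
Neat1 start anchor, HNF4: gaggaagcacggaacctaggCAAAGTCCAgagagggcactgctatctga
CAAAGTCCA was present in 19.3% of the 119 anchors as wide as the Neat1 body anchor (0.8 to 1.25 times its width) and in 21.2% of the 104 as wide as the Neat1 start anchor. The hub and both Malat1 anchors had no match to it. Forkhead letters were most numerous in the Neat1 start anchor, the widest member anchor, with TGTTTAC at 2 places and TATTTAC at 4. Of the 104 anchors as wide, 78.8% held TGTTTAC and 75.0% TATTTAC, with a median of 1 place for each. The Neat1 body anchor held each at 1 place. TGTTTAC was common, being present in 70.9% of the anchors as wide as the hub and in 57.9% of those as wide as the Malat1 start anchor.

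The 2 Neat1 anchors and the hub anchor carried the most loops. The Neat1 start anchor had 78 and 58 loops for FOXA1 (liver mets and tumor) and 39 and 50 loops for HNF4G. The Neat1 body anchor had 74, 57, 42 and 44 loops, and the hub anchor had 70, 55, 49 and 54. The order of the 3 changed between factors, since the Neat1 start anchor led both FOXA1 lists and the hub led both HNF4G lists, but their counting intervals overlapped in every list. The Malat1 start anchor had fewer, with 45, 38, 25 and 21 loops, and the Malat1 3′ anchor had 24, 24, 7 and 14.

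**Figure D1:**
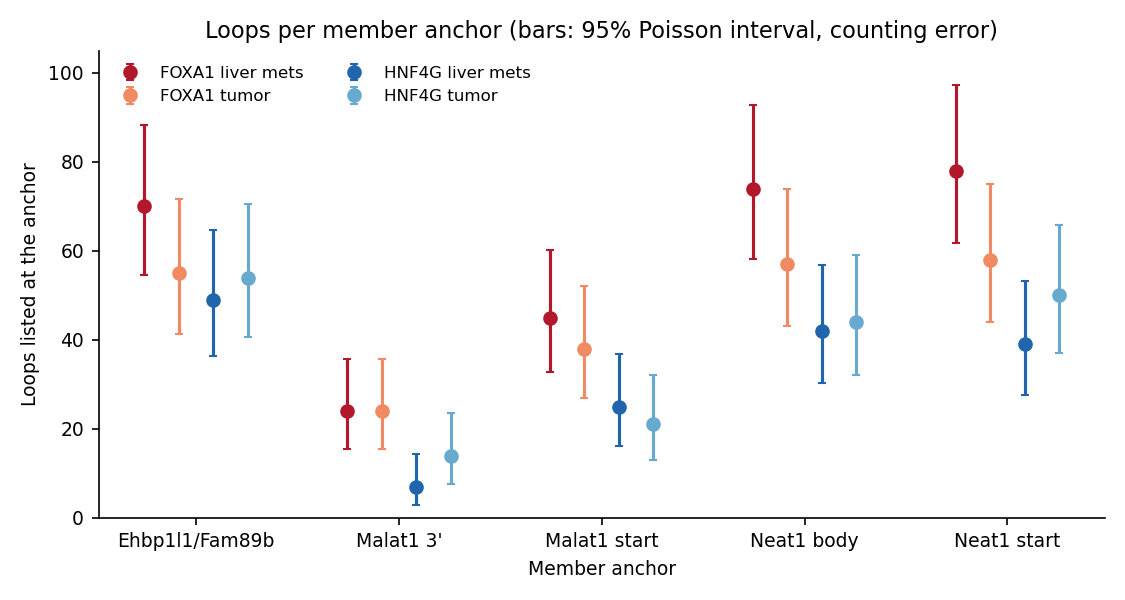
Loops listed at each of the 5 member anchors (x axis) in the 4 lists (colours), with 95% Poisson intervals that cover counting error only. The hub and both Neat1 anchors sit between 39 and 78 loops, and the Malat1 3′ anchor between 7 and 24.

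Among all anchors of a list ordered by loop number, the hub anchor was in places 6 and 7 for FOXA1 and in places 1 and 2 for HNF4G. The Neat1 start anchor was in places 2, 3, 14 and 6, and the Neat1 body anchor in places 3, 4, 7 and 18. The Malat1 start anchor was in places 71, 65, 179 and 487. Wide anchors carry more loops, so each was set beside anchors 0.8 to 1.25 times as wide. Anchors as wide as the hub had a median of 24, 19, 15 and 15 loops (368 anchors), each below the 70, 55, 49 and 54 of the hub. For the Neat1 start anchor the medians were 32, 26, 20.5 and 21.5 loops (104 anchors), and for the Malat1 start anchor 15, 12, 9 and 9 (2027 anchors). Per kb of its width the small Malat1 3′ anchor carried the most loops in 3 lists, with 16.1 in both FOXA1 lists and 9.40 in HNF4G tumor, and in HNF4G liver mets the hub did with 5.49 against 4.70.

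Counted together, the member anchors had 282 FOXA1 loops in liver mets against 222 in tumor, which is a ratio of 1.27 (1.06 to 1.52). The whole FOXA1 lists differed by a ratio of 1.21, and as shares of their lists the member loops had a ratio of 1.05 (0.880 to 1.26), so the excess in liver mets was no longer apart from 1. For HNF4G the counts were 155 in liver mets against 175 in tumor, which is a ratio of 0.886 (0.709 to 1.11), or 0.866 (0.693 to 1.08) as shares of the lists. At the hub liver mets loops stood to tumor loops at a ratio of 1.27 (0.881 to 1.85) for FOXA1 and 0.907 (0.604 to 1.36) for HNF4G. None of the 5 anchors had a ratio whose interval left out 1 for either factor. The widest departures were at the Malat1 3′ anchor for HNF4G, with 7 loops against 14 (0.5, 0.171 to 1.32), and at the Neat1 start anchor for FOXA1, with 78 against 58 (1.34, 0.945 to 1.92). A difference between the lines was therefore not detectable at these loop numbers, and with 1 list per group it could not be tested.

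The loops themselves reached both ways along the chromosome. Of the hub's FOXA1 loops, 31 of 70 in liver mets and 22 of 55 in tumor led to lower coordinates, and of its HNF4G loops 26 of 49 and 27 of 54. The Neat1 start anchor leaned toward lower coordinates, where the other member anchors lie, with 62.8%, 60.3%, 53.8% and 58% of its loops. The median span of member loops, between anchor midpoints, was 244 and 195 kb for FOXA1 and 163 and 207 kb for HNF4G. The whole lists had medians of 164, 141, 114 and 131 kb, and chromosome 19 had 199, 169, 135 and 154 kb. Loops of 100 kb or more made up 74.1%, 67.6%, 63.2% and 65.1% of member loops. They made up 62.3%, 58.6%, 53.4% and 56.8% of the whole lists and 66.8%, 63.0%, 57.2% and 60.1% of chromosome 19 loops. The difference between liver mets and tumor in that share was 6.55 percentage points for FOXA1 (-1.40 to 14.5) and -1.92 for HNF4G (-12.2 to 8.34), and both intervals held 0. With a limit of 200 kb the FOXA1 difference was 9.41 points (0.656 to 18.0), which left out 0, and the HNF4G difference was -7.56 (-18.1 to 3.21). For the whole lists the differences at the limit of 100 kb were 3.67 and -3.42 points. At that limit the member loops had the sign of their lists for each factor. The whole-list differences at 200 kb are not given here.

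**Figure D2:**
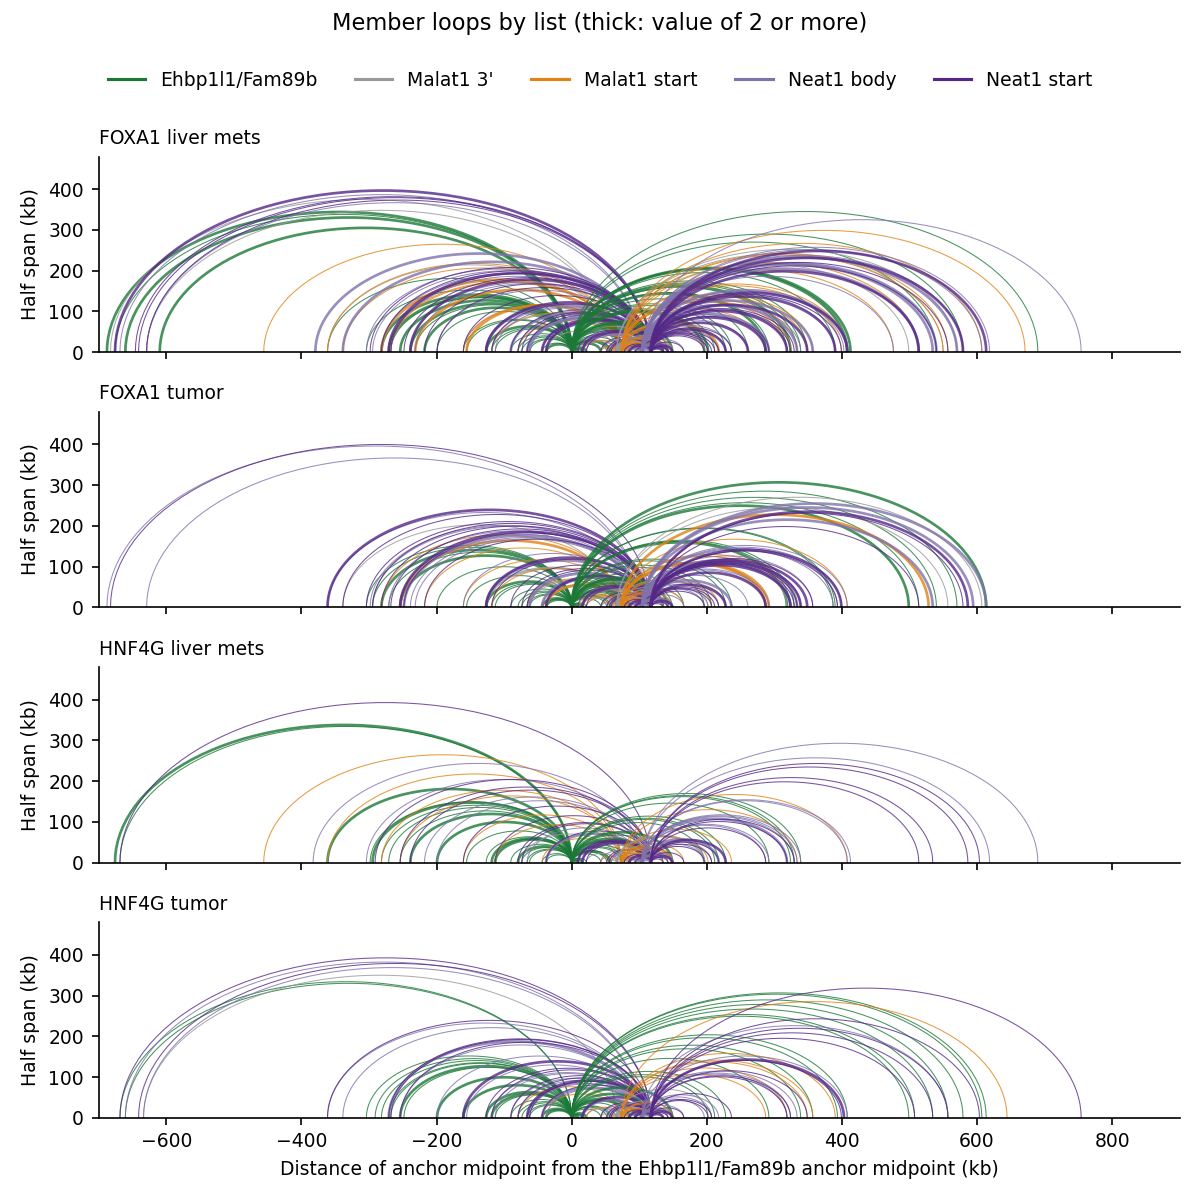
Member loops in each list drawn as arcs between anchor midpoints, by distance in kb from the midpoint of the Ehbp1l1 and Fam89b anchor (x axis), with height equal to 0.5 of the span (y axis), colour for the member anchor and thick lines for a deposited value of 2 or more. Loops with an end outside the plotted range are left out, and the dense arcs join the members and their nearest neighbours in all 4 lists.

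The longest loop differed in every list. In FOXA1 liver mets it joined the Neat1 start anchor to that of Chka (choline kinase) over 1995 kb. In FOXA1 tumor it joined the hub to an anchor without a start over 1975 kb, and in HNF4G liver mets the hub to an anchor at the start of AC133523.1 over 1908 kb. In HNF4G tumor it joined the Neat1 body anchor to the start of Tcirg1, a subunit of the vacuolar proton pump, over 1926 kb. The Tcirg1 loop was listed in 2 lists and the other 3 in 1, and each had a value equal to the higher of the tied values of its list (1.87, 1.91, 1.99 and 1.99). The value of a loop was deposited without a name and is read here as the −log10 of an adjusted p, so a higher value stands for more evidence within a list. Tied values differed between lists, and the same value need not mean the same evidence in each.

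Loop numbers fall with span, so the member anchors were also set beside every possible pair of anchors in the same span range. Between 200 and 500 kb the hub was joined for FOXA1 to 24 of 43 anchors in liver mets (55.8%, 39.9 to 70.9) and to 14 in tumor (32.6%, 19.1 to 48.5). For HNF4G it was joined to 14 (32.6%, 19.1 to 48.5) and 16 (37.2%, 23 to 53.3) of the same 43. Of all anchor pairs in that range 12.8%, 10.2%, 6.79% and 7.11% were listed, and of chromosome 19 pairs with an anchor of 5 kb or more 32.2%, 25.9%, 18.3% and 19.5%. In this range the hub's share was above both in every list, which is a description, since the hub was chosen for its loop number. The Neat1 start anchor was joined to 45.3%, 43.4%, 20.8% and 32.1% of 53 anchors in this range, also above the wide-anchor share in every list. Its intervals held that share in both liver mets lists (31.6 to 59.6 and 10.8 to 34.1) and left it out in both tumor lists. The Malat1 start anchor, with 43.5%, 21.7%, 13% and 10.9% of 46 anchors, was below the wide-anchor share in 3 lists and above it in FOXA1 liver mets. Its interval held the wide-anchor share in every list, so these differences lay within counting error. Below 50 kb the hub was joined to all 6 anchors in every list. Of the chromosome 19 wide-anchor pairs 95.2%, 93.3%, 91.4% and 86.1% were listed below 20 kb. Between 20 and 50 kb 90.7%, 86.0%, 80.6% and 73.9% of them were, so most near pairs of wide anchors were listed. Between 1000 and 2000 kb the hub was joined to 8.62%, 6.03%, 5.17% and 4.31% of 116 anchors, against 7.57%, 5%, 3.60% and 4.04% for the wide-anchor pairs.

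**Figure D3:**
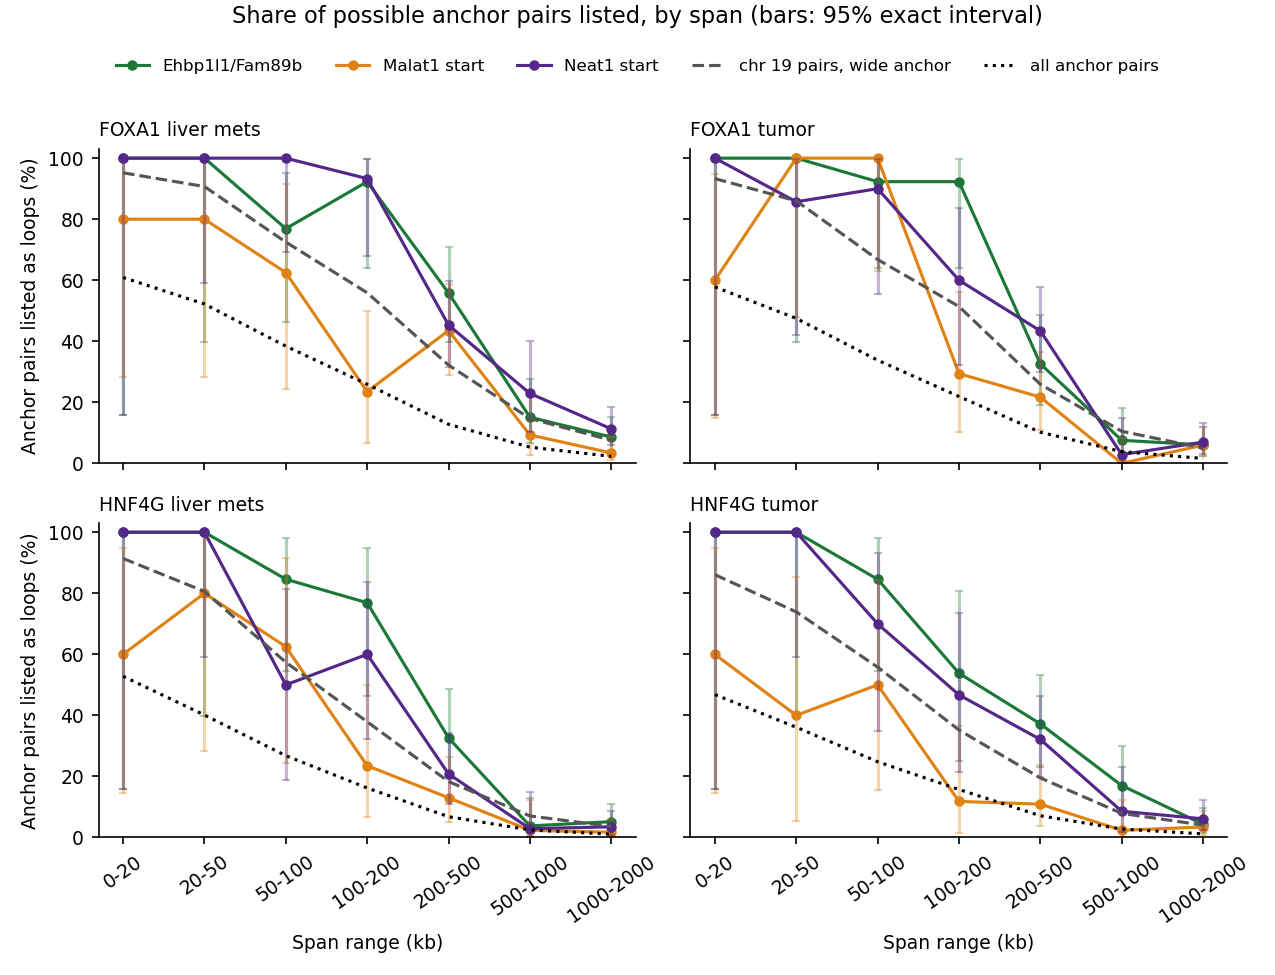
Percentage of possible anchor pairs listed as loops (y axis) in each span range (x axis, kb) for the Ehbp1l1 and Fam89b, Malat1 start and Neat1 start anchors, with 95% exact intervals, beside all anchor pairs (dotted) and chromosome 19 pairs with an anchor of 5 kb or more (dashed). Between 200 and 500 kb the Ehbp1l1 and Fam89b anchor reaches 55.8% in FOXA1 liver mets against 32.2% for the wide-anchor pairs.

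The member anchors were joined to each other. All 10 pairs of the 5 member anchors were listed in at least 1 list and 6 of them in all 4, with 9 and 10 pairs in the FOXA1 lists and 7 and 8 in the HNF4G lists. With gene starts only, 3 member anchors and 3 pairs remained. Of chromosome 19 pairs with an anchor of 5 kb or more, 90.7%, 86.0%, 80.6% and 73.9% were listed between 20 and 50 kb. Between 100 and 200 kb 55.9%, 51.4%, 37.9% and 35.2% of such pairs were listed. The Neat1 body and start anchors, which lie 800 bp apart, had the top value of 20 in every list. The hub and the Neat1 start anchor, 117 kb apart, had values of 9.31 and 8.71 for FOXA1 and 6.15 and 3.79 for HNF4G. This was the strongest listed contact between Neat1 and the Ehbp1l1 and Fam89b promoters in all 4 lists.

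Malat1 was joined to Neat1 in all lists, with the highest deposited values in FOXA1 liver mets. The Malat1 start and Neat1 body anchors, 30.6 kb apart, had values of 9.20 and 0.813 for FOXA1 and 1.5 and 1.99 for HNF4G. The Malat1 start and Neat1 start anchors, 43.4 kb apart, had values of 8.78, 2.12, 2.34 and 2.33. The Malat1 3′ anchor had values of 4.17 and 3.75 to the Neat1 body and start anchors in FOXA1 liver mets, values of at most 1.57 in both tumor lists, and no listed loop to either in HNF4G liver mets. FOXA1 liver mets thus had the highest value for all 4 Malat1 to Neat1 pairs, though values are not on 1 scale across lists and no test could be made. The hub and the Malat1 start anchor, 73.7 kb apart, were listed everywhere but with low values of 1.87, 0.444, 0.146 and 0.544, and the hub and the Malat1 3′ anchor were listed in FOXA1 tumor only, at 0.123.

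**Figure D4:**
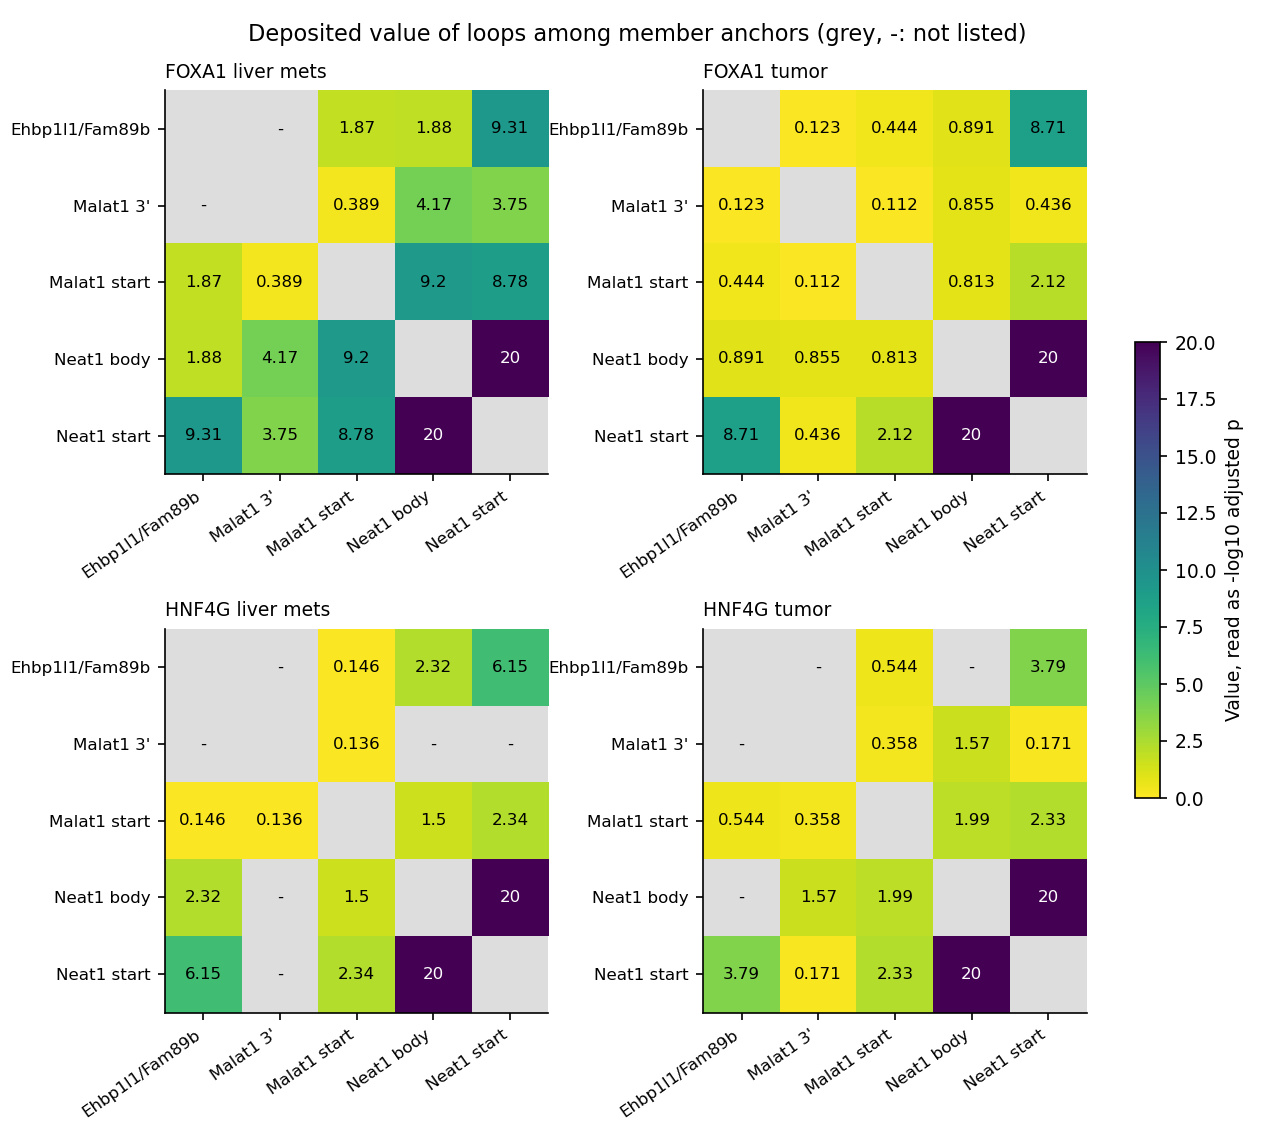
Deposited value of each loop among the 5 member anchors in the 4 lists (colour scale 0 to 20, read as −log10 of an adjusted p), with a dash for pairs that were not listed and blank cells on the diagonal. The 2 Neat1 anchors are at 20 in every panel, and the Malat1 to Neat1 cells are higher in FOXA1 liver mets than in the other 3 lists.

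Member loops were listed in all 4 lists more often than loops in general. Of the 443 member loops 59 (13.3%, 10.3 to 16.8) were in all 4, against 5.28% of all distinct loops, 7.13% of those on chromosome 19, and 3.37% when all loops were weighted to the spans of the member loops. The hub contributed 26 of its 109 distinct loops (23.9%), the Neat1 body anchor 17 of 114, the Neat1 start anchor 13 of 111, the Malat1 start anchor 7 of 75 and the Malat1 3′ anchor 2 of 44. In 231 cases (52.1%) a member loop was in 1 list, against 65.6% in the series and 72.3% after weighting by span. Loops in both liver mets lists and neither tumor list numbered 13 (2.93%, against 3.64% in the series), and those in both tumor lists and neither liver mets list 9 (2.03%, against 2.48%). Loops in both FOXA1 lists alone numbered 30 (6.77%, against 5.88%) and in both HNF4G lists alone 7 (1.58%, against 1.81%). Each of these 4 shares lay near its background, within its own counting interval. The part of the loop number and the width of the anchors in the 13.3% was not tested.

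Sharing fell with span. Between 20 and 50 kb 16 of 25 member loops were in all 4 lists (64.0%, against 13.9% of all loops in that range), and between 50 and 100 kb 19 of 44 (43.2%, against 7.40%). Between 100 and 200 kb 10 of 61 were (16.4%, against 3.36%), and between 200 and 500 kb 6 of 150 (4%, against 1%). These contrasts are a description, since the genes were chosen by a loop number in these same lists. The background holds anchors of all widths (median 2.33 kb), and the share for wide anchors alone is not given here. Of the 51 loops between 500 and 1000 kb and the 97 beyond 1000 kb, 0 were in all 4 lists, with exact intervals that reach 6.98% and 3.73%. Of the 59 shared loops, 11 had a value of 2 or more in every list and 8 a value of 4 or more.

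**Figure D5:**
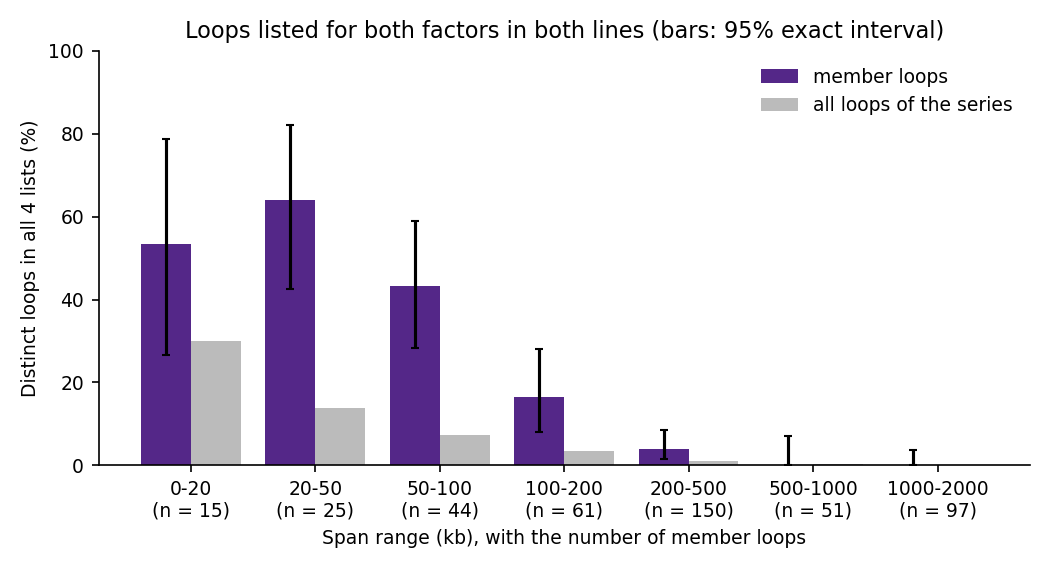
Percentage of distinct loops present in all 4 lists (y axis) by span range in kb (x axis), for member loops with 95% exact intervals and for all loops of the series. Member loops reach 64.0% between 20 and 50 kb, where 13.9% of all loops were shared, and 0% beyond 500 kb. The genes were chosen by a loop number in these lists, and the background holds anchors of all widths.

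The 443 loops led to 168 partner anchors outside the member set, 125 of which had a gene start within 2 kb. Of these partners 79 were joined to at least 3 member anchors, 62 of them with a start, and 25 were joined to all 5. A gene start within 2 kb of the partner was found for 338 of the 443 loops (76.3%, 72.1 to 80.2), where other member anchors count as promoters, and for 71.7% of the anchors within the same reach, a share just below that interval. Partners overlapped between members. In FOXA1 liver mets the hub and the Neat1 start anchor shared 45 anchors, 64.3% of the hub's 70 and 57.7% of the Neat1 anchor's 78. In HNF4G liver mets they shared 22, or 44.9% of 49 and 56.4% of 39. No comparison with other neighbouring anchors was made.

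The most complete partner was the anchor at chr19:5874553-5879486 over the starts of Frmd8, which stabilises the machinery that sheds cell surface proteins, and Slc25a45, a mitochondrial carrier. It was joined to all 5 member anchors in all 4 lists, 20 of 20 possible listings. Its values to the Neat1 start anchor were 20 and 20 for FOXA1 and 12.5 and 7.78 for HNF4G. Its values to the hub, 149 kb away, were 3.53, 1.45, 9.34 and 20. At the Neat1 start anchor both FOXA1 values were above both HNF4G values, and at the hub both HNF4G values were above both FOXA1 values. Within HNF4G liver mets the value was still higher at the Neat1 start anchor (12.5) than at the hub (9.34). Values are not on 1 scale across lists, and no test could be made. To the Neat1 body anchor the values were 4.95, 5.04, 7.37 and 4.51, with no such split. The listings to Malat1 had low values, at 1.20, 0.466, 2.49 and 0.171 for the start anchor and 0.0889, 0.123, 0.741 and 0.171 for the 3′ anchor. An anchor without a gene start at chr19:5808251-5819047, between Malat1 and Neat1, had 19 of 20 possible listings. Its values to the Neat1 body anchor were 20 in every list, those to the Neat1 start anchor 20, 20, 20 and 13.1, and those to the Malat1 start anchor 20, 10.3, 20 and 6.32. For the Malat1 start anchor this was the loop of highest value in each list, and it was higher in liver mets than in tumor for both factors, with no test possible.
This anchor held TGTTTAC at 2 places outside any gene, at chr19:5808387-5808433 (minus strand) and chr19:5810408-5810454 (plus strand), shown because its loops to 3 member anchors were among those of highest value.
Anchor between Malat1 and Neat1, lower position: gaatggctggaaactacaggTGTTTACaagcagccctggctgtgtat
Anchor between Malat1 and Neat1, higher position: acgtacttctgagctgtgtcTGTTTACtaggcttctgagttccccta
Of anchors of its width 77.0% held these letters.

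On the other side lay Ltbp3, whose product holds latent TGF-beta in the matrix. The loop from the hub to the Ltbp3 start anchor at chr19:5740949-5747190, 15.9 kb away, had the top value of 20 in all 4 lists, a value that the hub's loop to the Frmd8 and Slc25a45 anchor also reached in HNF4G tumor. A further Ltbp3 anchor, 21.7 kb from the hub, had values of 4.08, 1.22, 1.94 and 5. The Ltbp3 start anchor at chr19:5740949-5747190 was joined to the Neat1 start anchor, 101 kb away, with values of 11.9, 9.72, 5.49 and 6.26. To the Neat1 body anchor it had values of 9.33, 2.29, 1.99 and 2.51. Both FOXA1 lists were thus above both HNF4G lists for the Ltbp3 start anchor and the Neat1 start anchor.

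Partner genes were counted against the 95 protein-coding genes within 935 kb of the hub, the distance of the farthest gene of the 4 lists below. Of these 72.6% were partners of a member in at least 1 list and 35.8% in all 4, or 88.5% and 43.6% of the 78 with an anchor at a start. A gene counted as a partner in all 4 lists could be joined to different member anchors in different lists. The counts of the lists are small, and nothing particular to a list is read from them. Some partner anchors held starts of further genes, such as Map3k11 and Sipa1 with Pcnx3, Cfl1 with Mus81, and Banf1 with Eif1ad. Loops of genes at a shared anchor cannot be told apart.

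Of 8 neighbouring genes of NF-kB, MAPK and small GTPase signalling, 7 were partners of a member in at least 1 list and 6 in all 4. Rela, the activating NF-kB subunit, was joined to the hub in every list, with values of 1.60, 0.478, 1.99 and 1.56. Map3k11, a kinase upstream of JNK, was joined to the hub with 3.22, 2.00, 1.58 and 2.20, and its highest value to any member was 10.7 in FOXA1 tumor and 9.52 in FOXA1 liver mets, against 2.89 and 2.20 for HNF4G. Fosl1, a component of the AP-1 factor, was joined to the hub from 282 kb away in all lists with 3.02, 3.26, 1.90 and 1.87. Both HNF4G values were near the lowest listed at that span. Sipa1, which inactivates Rap GTPases, had 3 anchors and 30 listings with members over the 4 lists. Arl2 and Cdc42ep2, a GTPase and an effector of Cdc42, were also partners in all 4 lists. Rin1 was a partner in both liver mets lists only, with 2 loops for FOXA1 and 1 for HNF4G, and Rab1b, which had an anchor, was a partner in none.

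Of 9 genes of chromatin and RNA processing, 7 had an anchor at their start and 5 were partners, 3 of them in all 4 lists. Kat5, an acetyltransferase of histones, had 8 and 7 loops to members for FOXA1 and 2 and 5 for HNF4G. Of its 2 anchors, the one at chr19:5608908-5610958 covered the first Kat5 start, and the hub loop to it, 118 kb long, had values of 0.749, 1.16, 4.22 and 2.27. The other, at chr19:5599202-5604301, lay at the far end of the gene over an internal start and beside Rnaseh2c, and its hub loop, 126 kb long, had values of 2.96, 2.20, 1.53 and 2.46. The list of highest value thus differed between them, HNF4G liver mets for the first and FOXA1 liver mets for the second. Banf1, a DNA-binding protein of the nuclear envelope, and Drap1, a subunit of a transcriptional repressor, were also partners in all lists. Banf1 had 3, 2, 2 and 2 loops and Drap1 2, 2, 1 and 1, but none of these loops was itself in all 4 lists. Banf1 was joined to the hub and Malat1 anchors in the liver mets lists only. Its loops to the Neat1 anchors were in the tumor lists only. Sart1, a spliceosome component, was absent from HNF4G liver mets and Sf1, a splicing factor, was present in HNF4G tumor only, by 1 loop. Sf3b2 and Rbm14 had an anchor and no loop to a member.

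Of 8 genes of actin, membrane traffic and proteolysis, 7 were partners and 2 were so in all 4 lists, Capn1 and Ehbp1l1, which is itself a member and is counted for its loops to the others. Capn1, a calpain protease, had 4, 4, 2 and 1 loops. Cfl1, which severs actin filaments, had 3 and 1 loops for FOXA1 and 2 and 0 for HNF4G, with highest values of 4.61, 1.84 and 5.51 where listed. The sorting nexin gene Snx15 had 6, 5, 0 and 4 loops and Snx32 had 5, 3, 1 and 0. Klc2 was a partner in FOXA1 liver mets only and Pacs1 in both liver mets lists only, with 1 loop in each, and Actn3 was a partner in none.

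Of 6 matrix, TGF-beta and tumor-linked genes, all with an anchor, 6 were partners, and Ltbp3, Efemp2 and Men1 were partners in all 4 lists. Efemp2, an elastic fibre protein, was joined to the hub from 254 kb away with 2.86, 3.15, 1.86 and 3.34. The HNF4G liver mets value was near the lowest listed at that span. Men1, which encodes the tumor suppressor menin, had 3 loops in each list but HNF4G liver mets, which had 1. Cst6 was listed in both liver mets lists only, with 1 loop each, and Brms1 in both FOXA1 lists only, with 2 loops each. Each of these Cst6 and Brms1 loops was in 1 list, so the lists shared none of them. Cd248 was listed in FOXA1 liver mets (1 loop) and HNF4G tumor (2 loops). These patterns rest on 1 to 3 loops per list, within counting error of each other. Ovol1, an epithelial transcription factor gene, had no anchor at its start.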

How the data were processed

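The authors mapped Hi-ChIP reads to mm10 with HiC-Pro (3.1.0 per the labels), assigned them to DpnII fragments, discarded duplicates and called loops with hichipper. The source of the anchors, the read minimum and how replicates were joined are not given in the sources used here. Each deposited list gives the anchors, an unnamed value, read from its tied runs and its top of 20 as the −log10 of an adjusted p, and a display score, deposited by the authors, that follows the value and was not used further.

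Anchors within 2 kb of a GENCODE M21 transcript start of a member gene were kept, and coordinates count from 1. The members and gene lists were chosen with earlier results of these data known. Named loops were the 5 of highest value and the longest per list, with the fixed neighbour genes and the partners joined to at least 3 member anchors. The Ltbp3 and Frmd8 anchors came from this rule, and 1 further partner is not reported here. Hub loops to Rela, Map3k11, Fosl1, Kat5 and Efemp2 were taken for these genes of the lists. Intervals were exact Poisson for counts, Clopper-Pearson for shares and for ratios given their sum, and Newcombe for differences. The functions were tested on simulated data. Motifs were searched as exact letters on both strands of the GRCm38 sequence. Python 3.11.15, pandas 2.3.3, numpy 2.4.6 and scipy 1.17.1 were used. Alternatives were value minimums of 2 and 4, other start distances, division by list size, widened anchors, protein-coding starts and a limit of 200 kb for long loops. Sequencing depth and the read pairs behind a loop were not used here.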

Additional observations from a re-analysis of the deposited data

Results flagged for a closer look

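As a share of each list, member loops were relatively more numerous in liver mets than in tumor for FOXA1 (ratio 1.05) and less numerous for HNF4G (0.866), and the opposite directions are why they are given here. The hub (1.06 and 0.887), the Neat1 body anchor (1.08 and 0.933) and the Neat1 start anchor (1.11 and 0.762) had the same pattern. The Malat1 start anchor had the reverse, with 0.982 for FOXA1 and 1.16 for HNF4G, and the Malat1 3′ anchor was below 1 for both, with 0.829 and 0.489. Each interval held 1, each group had 1 list, and whether the factors differed was not tested.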

How the results depend on the processing

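No paired analysis was possible because each group had 1 loop list covering both replicates, and for the same reason no replicate could be left out. The FOXA1 ratio of liver mets to tumor member loops of 1.27 became 1.05 when divided by the loops in each list. At a value minimum of 4, which left 34 distinct member loops, the HNF4G ratio was 1.17 in place of 0.886, the FOXA1 ratio at the hub 2.00 in place of 1.27 (1.85 at a minimum of 2), and the percentage of loops in all 4 lists 23.5 in place of 13.3 (8.87 at a minimum of 2, with 124 loops). Widening anchors by 5 kb on each side raised that percentage to 58.9, since neighbouring anchors then match. The difference in loops of 100 kb or more was -13.8 points for FOXA1 at a minimum of 4, in place of 6.55, and for HNF4G 13.3 and 17.9 points at minimums of 2 and 4, in place of -1.92, so both signs turned, with intervals that held 0 at these minimums. With a limit of 200 kb the FOXA1 interval left out 0 (9.41 points). The percentage with a promoter partner, 76.3, was 87.1 and 85.3 at minimums of 2 and 4, 67.7 and 89.4 with start distances of 1 and 5 kb, and 71.6 with protein-coding starts. Contacts among member anchors, 10 pairs, numbered 5 at a minimum of 4, 6 and 19 with start distances of 1 and 5 kb, and 3 with gene starts only, since the number of member anchors became 4, 7 and 3 under the last 3 settings. The cause was not tested where none is named. The other alternatives stayed within the counting interval of the reported value, or within 1.5 times for contacts. Unknown depth, 1 list per group, 1 line per context and tied values limit every comparison between lists.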

Other observations

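Cut sites of DpnII, the enzyme that made the Hi-ChIP fragments, were not spread evenly over the member anchors. The Malat1 start anchor held 5 sites, against a median of 9 in anchors of similar width, and the hub held 15 against 15. The Neat1 body and start anchors held 23 and 20 sites against medians of 22 each, the Malat1 3′ anchor 4 against 3, and the Frmd8 and Slc25a45 anchor 15 against 7. The hub was also richer in G and C, at 55.5% against a median of 50.5%, and the Malat1 start and Neat1 body anchors were poorer, at 46.1% against 49.2% and 46.2% against 51.0%. The part of either property in the loop numbers was not tested.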
